A study of Mus musculus with 2 samples.

Results

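The T cell receptor beta segments are the short gene pieces (V, D and J) that a developing T cell joins to build the variable end of its receptor beta chain. They were taken as every gene row of the GENCODE M21 tables whose symbol starts with Trbv, Trbd or Trbj, which gave 51 of 55536 genes. Of these, 35 were Trbv rows, 2 were Trbd rows, 7 were Trbj1 rows and 7 were Trbj2 rows. GENCODE types 22 of the Trbv rows as V genes, called functional here by that type alone, and 13 as V pseudogenes. It types Trbj2-6 as a J pseudogene.

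The assay was sequencing of polyadenylated RNA, and the cells were activated regulatory T cells, a CD4 lineage that depends on FOXP3 and dampens immunity. They came from an adult male mouse aged 4 months of the Foxp3CreERT2 x Rosa26YFP strain, which pairs a Foxp3-driven Cre that tamoxifen activates with a YFP reporter in the Rosa26 locus. The labels name bone marrow haematopoietic cells as the origin. The sources used here do not say how the cells were sorted or activated, or whether tamoxifen was given. Technical replicates 1 and 2 of biological replicate 1, called library 1 and library 2 here, form the only group. Every SD is over these 2 libraries unless it is called a posterior SD, and every p-value compares libraries and not animals.

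Estimated gene reads came to 15076048 in library 1 and to 14635787 in library 2. All 5 regulatory T cell markers and all 5 T cell markers reached 1 TPM (a length-scaled level with a fixed sum over all rows) in both libraries, and Foxp3 itself had 23.8 TPM in library 1 and 20.9 TPM in library 2. Summed levels in libraries 1 and 2 were 11.4 and 15.6 TPM for cytotoxic T cell markers and 23.0 and 26.4 TPM for gamma delta T cell markers. They were 1.93 and 2.17 TPM for B cell, 1.63 and 2.15 TPM for natural killer cell, 0.65 and 3.15 TPM for myeloid and 0.30 and 0.23 TPM for thymocyte markers. Ncr1, Itgax, Cd14 and Rag2 had 0 reads in both libraries. Cd4 had 6043 reads in library 1 and 7884 in library 2 (log2 ratio −0.43), and the part of such differences in the results below was not tested.

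In a developing thymocyte the RAG recombinase first joins a D segment to a J segment and then a V segment to that DJ unit. The joined exon is spliced to a constant gene, Trbc1 or Trbc2, so that a mature transcript reads V, D, J and C in order. In the mouse, Trbd1 and the Trbj1 segments lie upstream of Trbc1, Trbd2 and the Trbj2 segments lie upstream of Trbc2, and a V segment can join into either cluster. Most V segments lie far upstream, while Trbv31 lies downstream of Trbc2 in the opposite orientation and joins by inversion.

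The J and D segments are shown because their length decides whether a read can be assigned to them. On mm10 the Trbj1 segments spanned chr6:41533864-41535687 and the Trbj2 segments chr6:41542754-41543856, both on the plus strand. These are the whole transcripts of GENCODE M21, exonic in that annotation and on the sense strand. Capitals mark TTNGGNNNNGG, the run that can encode the phenylalanine-glycine-X-glycine turn typical of J segments, and Trbj1-6, Trbj1-7 and Trbj2-6 do not hold these letters. Trbj1-3 is given as its longer transcript, whose last 4 bases are absent from the shorter one. Whether a spliced message keeps those 4 bases was not tested.
Trbd1: gggacagggggc
Trbj1-1: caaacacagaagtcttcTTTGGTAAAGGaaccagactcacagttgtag
Trbj1-2: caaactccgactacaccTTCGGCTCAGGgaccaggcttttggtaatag
Trbj1-3: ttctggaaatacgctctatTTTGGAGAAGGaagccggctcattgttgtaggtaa
Trbj1-4: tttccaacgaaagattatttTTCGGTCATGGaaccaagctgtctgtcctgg
Trbj1-5: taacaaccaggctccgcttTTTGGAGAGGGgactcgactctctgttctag
Trbj1-6: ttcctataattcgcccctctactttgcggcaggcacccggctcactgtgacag
Trbj1-7: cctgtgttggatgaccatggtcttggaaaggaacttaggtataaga
Trbd2: gggactgggggggc
Trbj2-1: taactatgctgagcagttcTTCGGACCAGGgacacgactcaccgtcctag
Trbj2-2: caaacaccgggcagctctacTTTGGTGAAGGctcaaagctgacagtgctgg
Trbj2-3: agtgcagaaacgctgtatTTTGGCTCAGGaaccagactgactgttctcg
Trbj2-4: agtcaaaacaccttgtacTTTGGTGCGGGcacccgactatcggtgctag
Trbj2-5: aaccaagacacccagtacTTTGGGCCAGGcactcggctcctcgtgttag
Trbj2-6: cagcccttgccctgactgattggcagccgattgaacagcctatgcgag
Trbj2-7: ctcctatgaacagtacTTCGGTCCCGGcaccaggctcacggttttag

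The run TTNGGNNNNGG stood on the sense strand of 5 of 7 Trbj1 and 6 of 7 Trbj2 segments. Among transcripts, it stood in 12 of 16 from Trbj genes and in 49 of 64 from the alpha chain's Traj genes, against 21 of 696 other transcripts of 40 to 70 bases (3.02%). On the antisense strand it stood in 0 Trbj transcripts and in 0.287% of the others. The files' length minus effective length was 49 bases, that of a 50-base read, so a transcript shorter than 50 bases can hold no read. Trbj1-1, Trbj1-2, Trbj1-7, Trbj2-3, Trbj2-4, Trbj2-5, Trbj2-6, Trbj2-7 and both D segments were below that length.

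The ends of some V segments are shown because that end is what D and J are joined to. Each is the last 30 bases of the GENCODE transcript, for Trbv31 of the transcript with more reads (227.64 and 232.57 in libraries 1 and 2, against 181.36 and 156.43 for the other), and capitals mark TGTGCCAG, which spans the codon of the conserved cysteine where the antigen-contacting CDR3 loop begins. Trbv3, Trbv13-2, Trbv19, Trbv5 and Trbv13-1 held the most reads, Trbv1 and Trbv31 lie at the ends of the array, and Trbv24 is the pseudogene with the most reads.
Trbv3: gtgtacttcTGTGCCAGcagcttagccaca
Trbv13-2: catcagtgtacttcTGTGCCAGcggtgatg
Trbv19: tggccgtttttctcTGTGCCAGcagtatag
Trbv5: agctgtctattttTGTGCCAGcagccaaga
Trbv13-1: catctttgtacttcTGTGCCAGcagtgatg
Trbv1: cagaaccttgtactgcacctgcagtgcaga
Trbv31: ctctggcttctacctctgtgcctggagtct
Trbv24: agcactgtagctcTGTGCCAGcagtctgta

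TGTGCCAG stood in the last 30 bases of 13 of 22 functional Trbv genes and of 6 of 13 Trbv pseudogenes, so the run did not separate the classes. It stood in 0 of 147 Trav transcripts, the alpha chain's V transcripts, and in 0.0494% of 141681 other transcripts, with 0.048% on the antisense strand. Of the 12 Trbv genes with the most reads, 10 held it, and Trbv1 and Trbv16 did not.

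The 51 segments together held 12142.7 estimated reads in library 1 and 11282.5 in library 2, or 0.0805% and 0.0771% of gene reads. Nearly all of these reads lay on V segments, with 12109.7 reads on Trbv rows in library 1 and 11259.5 in library 2. The Trbj rows held 33 reads in library 1 and 23 in library 2, and both Trbd rows held 0. By TPM the picture differed, since the Trbj rows summed to 1503 TPM in library 1 and 937.4 TPM in library 2, against 2833 and 2788 TPM on the Trbv rows. In bulk RNA, more cells carrying a segment and more transcript per cell cannot be told apart.

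V use was broad and uneven. Of the 22 functional Trbv genes, 21 had 10 or more reads in both libraries and 18 had 100 or more. Their expected counts ran from 3 to 1416 around a median of 581.2 in library 1, and from 0 to 1233 around a median of 543.5 in library 2. The 5 leading segments held 42.3% and 42.0% of Trbv reads in libraries 1 and 2. The inverse Simpson number, which is the number of equally used segments that would give the same unevenness, was 15.6 in library 1 and 15.8 in library 2.

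Trbv3 had the most reads, with 1416 in library 1 and 1233 in library 2. The pair of values stood above both libraries' values of every other segment. Trbv13-2 came next with 1223.67 and 1085.37 reads, and per length it led the V segments with 339.1 and 318.7 TPM, against 281.2 and 259.5 TPM for Trbv3. Trbv19 had 921 and 963 reads but ranked 9th of the Trbv rows by mean TPM, with 143.6 and 159.2 TPM, since its transcript of 566 bases is longer than the 340 bases of Trbv13-2. Trbv5 had 813.73 and 792.09 reads and ranked 3rd by TPM with 205.7 and 212.2 TPM. Below these, Trbv13-1, Trbv15, Trbv12-1, Trbv16 and Trbv1 overlapped one another, and their order differed between libraries. Trbv13-1 had 748.84 and 652.73 reads, Trbv15 had 713 and 675, and Trbv12-1 had 688.64 and 696. Trbv16 had 717 and 592 reads and Trbv1 had 705 and 578. The list of 12 closed with Trbv13-3 at 583.5 and 608.9 reads, Trbv2 at 583 and 546 and Trbv12-2 at 579.4 and 541.0. Trbv2, with a transcript of 560 bases, ranked 11th by reads and 16th by TPM, with 92.0 and 91.3 TPM.

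**Figure D1:**
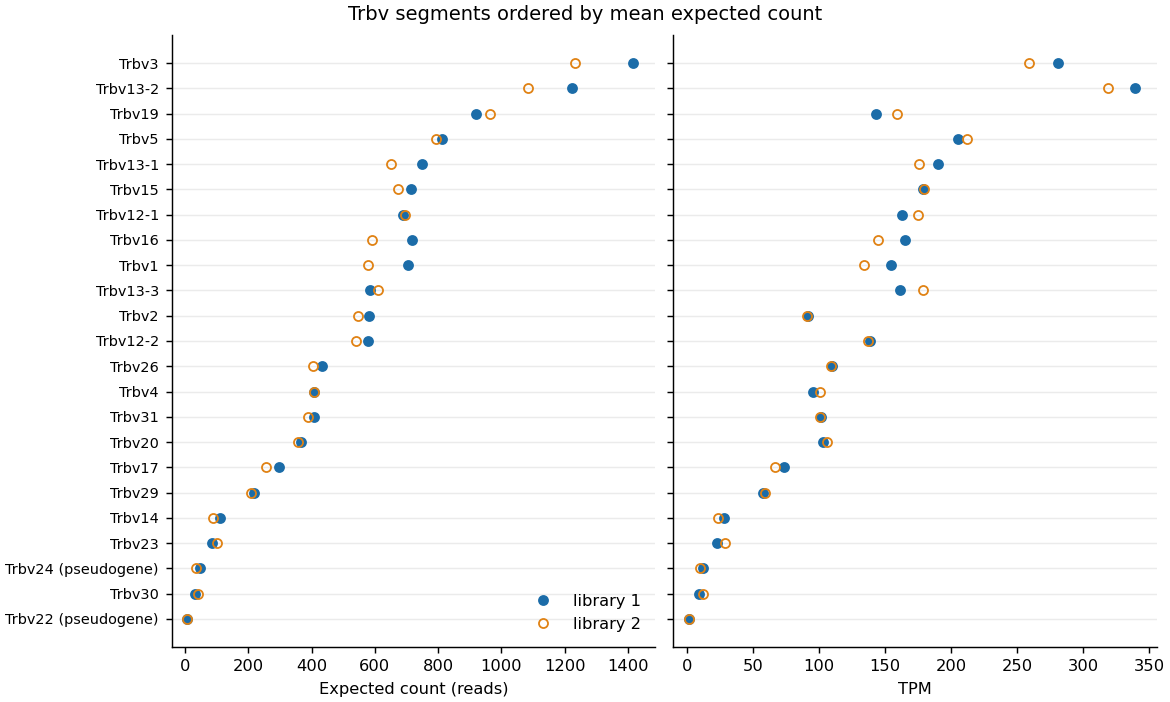
Expected counts (left, reads) and TPM (right) of the Trbv rows with a mean of 3 or more reads, in order of mean expected count, with library 1 as filled and library 2 as open circles. Trbv3 leads by reads and Trbv13-2 by TPM, and Trbv19 and Trbv2 sit to the left of their neighbours in TPM.

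The Trbv13 group (Trbv13-1, Trbv13-2 and Trbv13-3) held 21.1% and 20.8% of Trbv reads in libraries 1 and 2. The Trbv12 group held 10.5% and 11.0%. Members of these groups are close copies. In each library 7 Trbv rows, Trbv4 and Trbv5 among them and the rest in these groups, had an expected count that was not a whole number within 1e-06 reads, so some reads were divided among rows. The longest stretch shared by Trbv12-2 and Trbv12-3, of 53 bases, and that shared by Trbv13-2 and Trbv13-3, of 50 bases, are shown because each is long enough to hold a whole read.
Trbv12-2 and Trbv12-3: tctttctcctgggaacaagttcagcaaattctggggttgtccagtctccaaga
Trbv13-2 and Trbv13-3: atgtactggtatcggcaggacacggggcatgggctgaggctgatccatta

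These stretches cover few positions. A 50-base window is each stretch of 50 bases that a read could match, and 4 of the 336 windows of Trbv12-2 and 1 of the 291 windows of Trbv13-2 were shared. Trbv4 and Trbv5 were less separate, since 72.1% and 77.4% of their windows also lie in the overlapping long noncoding RNA 5830405F06Rik on the same strand. That gene was assigned 21.36 and 20.5 reads in libraries 1 and 2, against 408.91 and 406.4 for Trbv4 and 813.73 and 792.09 for Trbv5. The counts of these segments are uncertain to the extent that reads could have been split otherwise. The deposited posterior SD of the count sizes that uncertainty under the quantifier's own model, which was not tested here. In libraries 1 and 2 it was 0.53 and 0.87 reads for Trbv4 and 3.61 and 3.1 for Trbv5. For Trbv12-2 it was 0.52 and 0.18 reads, and for Trbv13-2 1.76 and 1.71.

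The array spans 667.2 kb of chromosome 6, from position 40891229 at Trbv1 to position 41558452 at Trbv31. Trbv1 starts 642 kb upstream of Trbd1 and Trbv31 lies 24.5 kb downstream of it, on the minus strand. Both ends of the array were used, with 705 and 578 reads on Trbv1 and 409 and 389 reads on Trbv31 in libraries 1 and 2. Between them lie 30 other annotated genes, 14 of them protein coding. At 1 TPM or more in both libraries stood 4 of the 30, namely Trbc1, Trbc2, 5830405F06Rik and the trypsin gene Prss2, which had 1.43 and 1.67 TPM.

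**Figure D2:**
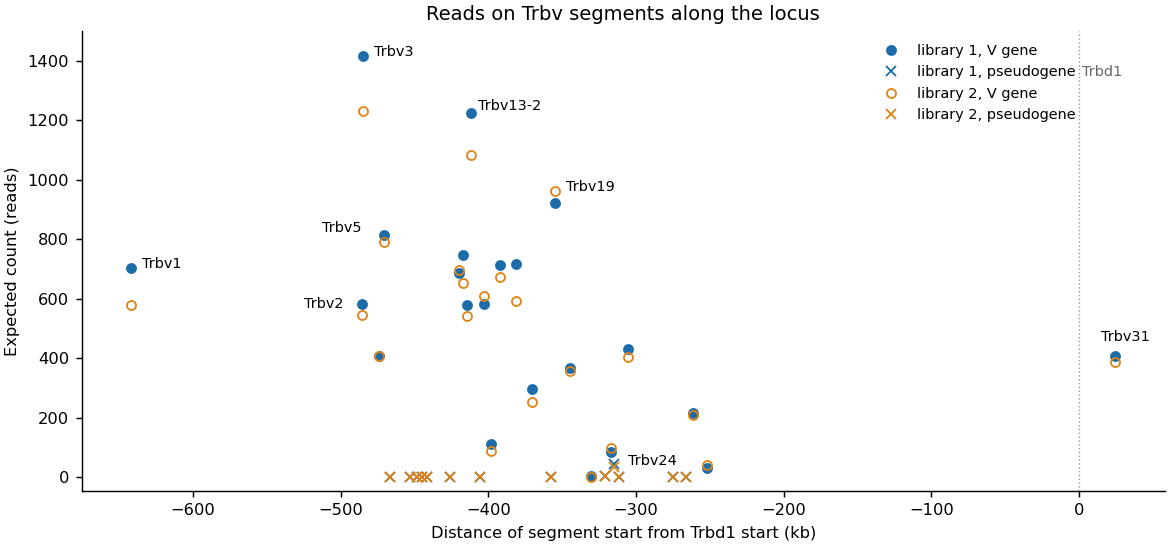
Expected count of each Trbv row (reads) against the distance of its start from the start of Trbd1 (kb), with library 1 filled or blue and library 2 open or orange, V genes as circles and pseudogenes as crosses. The highest counts belong to Trbv3, Trbv13-2 and Trbv19, and the pseudogenes lie at or near 0.

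Functional genes held 99.6% of Trbv reads in each library, with 12057.6 reads in library 1 and 11215.5 in library 2, against 52 and 44.01 reads on the 13 pseudogenes. Of the pseudogenes, 11 had fewer than 3 reads in both libraries. Trbv24 had 46 and 34 reads in libraries 1 and 2, or 12.4 and 9.75 TPM, more than the functional Trbv30 in library 1 (32 reads) and less in library 2 (42 reads). Trbv22 had 5 reads in each library. The next pseudogenes were Trbv7 with 0 and 2 reads, Trbv12-3 with 0 and 1.01 and Trbv6, Trbv8 and Trbv11 with 1 read in 1 library each. The other 6, Trbv9, Trbv10, Trbv18, Trbv25, Trbv27 and Trbv28, had 0 reads in both, for which the one-sided limit of counting error is 3 reads in a library. Among functional genes, Trbv21 was the lowest with 3 reads in library 1 and 0 in library 2, the same order as the pseudogenes.

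J reads were few and fell on 6 of the 14 Trbj rows, the same 6 in both libraries. They were exactly the 6 rows long enough for a 50-base read. Trbj1-3 had 10 and 7 reads in libraries 1 and 2, Trbj1-4 had 8 and 3, Trbj1-5 had 2 and 2, and Trbj1-6 had 4 and 4. Trbj2-1 had 7 and 1 reads and Trbj2-2 had 2 and 6, so these Trbj2 rows changed places between the libraries. Of the Trbj1-3 reads, 7.95 and 5.66 were assigned to the 54-base transcript printed above and 2.05 and 1.34 to the 50-base transcript. Functional J segments such as Trbj2-7 and Trbj2-5 were listed at 0, and at this read length their use cannot be seen in this table.

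A single read weighed heavily in TPM. On Trbj2-1, whose effective length was 1 base, 1 read was worth 80.6 TPM in library 1, against 0.219 TPM on Trbv1. Trbj2-1 therefore reached 564.4 TPM in library 1 with 7 reads, above the 339.1 TPM of Trbv13-2 with 1223.67 reads. In library 2 it had 85.4 TPM with 1 read. Trbj rows made up 3 of the 10 members highest by mean TPM and 5 of the 20 highest. As a percentage of the constant genes Trbc1 and Trbc2, the Trbj rows summed to 29.1% and 17.8% by TPM in libraries 1 and 2. By reads the Trbj rows summed to 0.081% and 0.0588%. The Trbv rows summed to 54.8% and 52.9% by TPM and to 29.7% and 28.8% by reads.

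**Figure D3:**
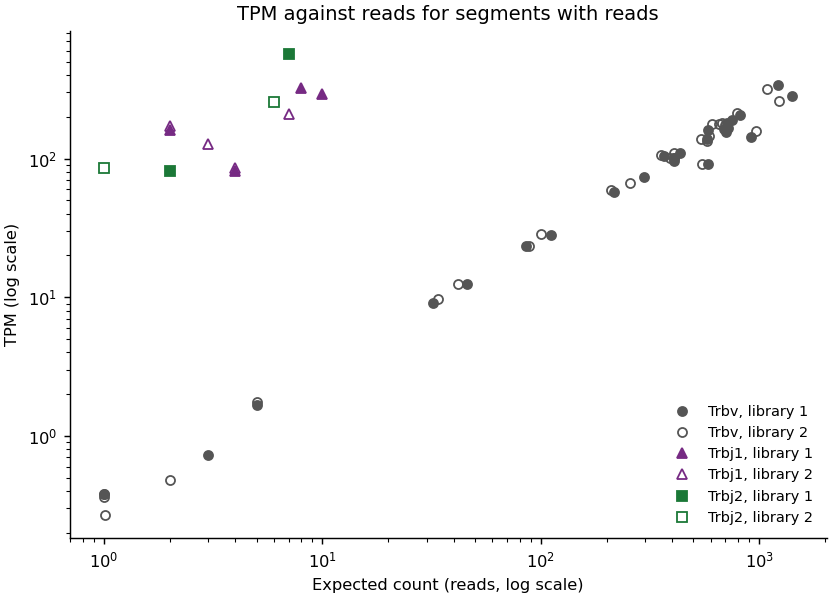
TPM against expected count (reads) for segments with reads, both on log scales, with circles for Trbv, triangles for Trbj1 and squares for Trbj2, filled for library 1 and open for library 2. The Trbv rows follow a line, and the Trbj rows reach 80.6 to 564.4 TPM with 10 reads or fewer.

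Trbj1 and Trbj2 stood in a different order depending on the measure. By reads, Trbj1 had 24 against 9 for Trbj2 in library 1, a Trbj1 share of 72.7% with an exact Clopper-Pearson 95% interval of 54.5% to 86.7%. In library 2, Trbj1 had 16 reads against 7 for Trbj2, a share of 69.6% with an interval of 47.1% to 86.8%. The mean share was 71.1% ± 2.24 (SD, n = 2 libraries), and Fisher's exact test between the libraries gave an odds ratio of 1.17 and a two-sided p of 1. By TPM the Trbj1 share was 57.1% in library 1 and 63.5% in library 2.

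The annotation gave these groups unequal room for reads. Of the Trbj1 rows 4 of 7 could hold a 50-base read, in 12 distinct windows, against 2 of 7 Trbj2 rows in 3 windows. Of the 12, 5 lie on Trbj1-3, and only 1 of those 5 lies in its shorter transcript. Per window, Trbj1 had 2.0 reads in library 1 (exact Poisson 95% interval 1.28 to 2.98) against 3.0 for Trbj2 (1.37 to 5.69). In library 2, Trbj1 had 1.33 reads per window (0.762 to 2.17) against 2.33 for Trbj2 (0.938 to 4.81). The direction was thus turned, with Trbj1 lower than Trbj2 per window in both libraries, and within each library the intervals overlapped. A difference between the J groups in either direction was not detectable from these few reads. Each had to lie within a row of 50 to 54 bases, so they are not a sample of all J use. A read within a single J row crosses no joint and no splice to a constant gene. Whether these reads came from joined and spliced messages therefore cannot be told. All Trbj rows together had 2.2 reads per window in library 1 (1.51 to 3.09) and 1.53 in library 2 (0.972 to 2.30). The Traj rows of the alpha chain, of which 56 of 60 could hold a read, had 683 windows. They had 0.603 reads per window in library 1 (0.546 to 0.664) and 0.523 in library 2 (0.470 to 0.580). The intervals of beta and alpha J rows thus did not overlap. By reads the order was the other way, with 412 and 357 on Traj rows against 33 and 23 on Trbj rows. A per-window value depends on how many rows share the reads, so it does not compare J signal between the chains.

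The whole-number table on GENCODE M4 counted every J row it held, including those shorter than a read. It had rows for 36 of the 51 segments, among them all 7 Trbj1 rows and 6 of 7 Trbj2 rows, with none for Trbj2-6. Trbj1 summed to 519 counts against 455 for Trbj2 in library 1, and to 507 against 424 in library 2. Those are Trbj1 shares of 53.3% (50.1% to 56.5%) and 54.5% (51.2% to 57.7%). The intervals, like the Fisher's exact test below, take each count as 1 independent read, which was not tested. With 7 rows against 6, the mean per row was 74.1 for Trbj1 and 75.8 for Trbj2 in library 1, and 72.4 for Trbj1 and 70.7 for Trbj2 in library 2. Fisher's exact test between the libraries gave a log2 odds ratio of −0.068 and a two-sided p of 0.613.

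In the whole-number table, Trbj1 rows ran from 56 to 93 counts in library 1 and from 44 to 92 in library 2, against 57 to 95 and 54 to 88 for Trbj2 rows. Trbj1-7 was the lowest Trbj1 row in both libraries with 56 and 44 counts, and Trbj2-2 the lowest Trbj2 row with 57 and 54. Trbj2-7 was the highest Trbj2 row with 95 and 88 counts. The D rows had 43 and 38 counts for Trbd1 and 52 and 38 for Trbd2.

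**Figure D4:**
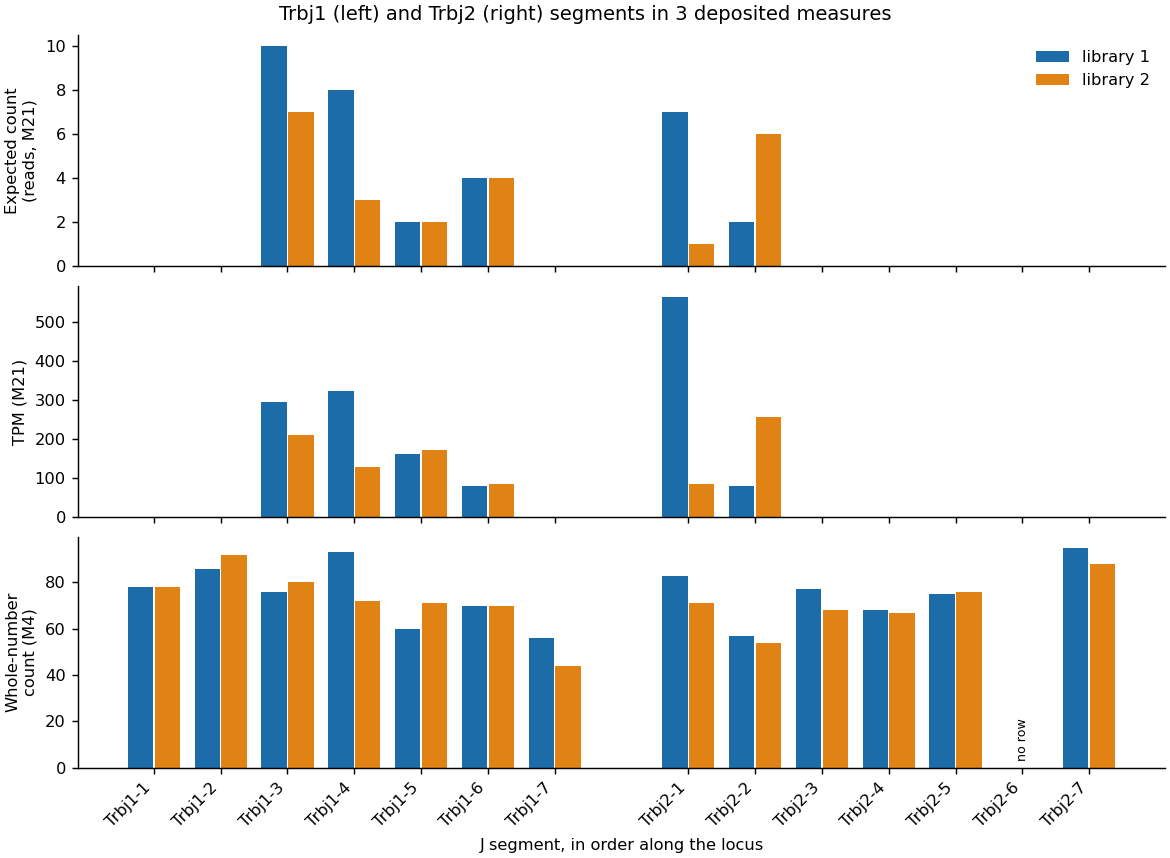
Expected count (top, reads), TPM (middle) and whole-number count (bottom) of each Trbj row, with library 1 left of library 2 and Trbj1 left of Trbj2. The M21 table has values on 6 rows, and the M4 table has 44 to 95 counts on each of its 13 rows.

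Counts in that table did not scale with abundance. Actb, the gene with the most expected reads, had 390739 expected reads and 1991 whole-number counts in library 1, and 386449 and 1976 in library 2. Per base of gene length, the row with the most counts of the 22195 matched genes was Trbd2 in library 1 with 3.71 and Trbd1 in library 2 with 3.17, while among genes of 300 bases or more the highest was Fyb with 2.57 and 2.51. The J rows had 1.12 to 2.02 counts per base in library 1 and 0.967 to 1.92 in library 2. For rows about as long as a read or shorter, the per-base value also depends on row length. The D and J values per base therefore do not rank abundance. Functional Trbv genes with a mean of 10 or more reads spanned a 35.8-fold range of mean expected count but a 15.2-fold range in the whole-number table, with nearly the same order (Spearman's rho 0.973 across the 20 of these segments with a row in both tables, counted in the same libraries). Values of the J rows are therefore compared here only within the table, and the narrowed range limits that comparison too. Near-equal shares or row means there do not show near-equal use.

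The constant genes gave a further measure of the 2 clusters. Trbc1 had 13980.45 and 13411.69 reads in libraries 1 and 2, against 26781.55 and 25705.31 for Trbc2. The Trbc1 share was 34.3% in both libraries by reads, and 35.0% and 35.2% by TPM. In the whole-number table it was 47.1% and 47.9%. The Trbj1 share by reads, 72.7% and 69.6%, thus lay above the Trbc1 share by reads, but it was taken over rows with unequal room for reads, and per 50-base window the mean Trbj1 share was 38.2%. The constant genes are close copies, so their split is uncertain too.

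Between the libraries the V segments had a similar but not identical order. Across the 22 functional Trbv genes, which share each library's depth, the log2 of the count plus 1 had a Pearson's r of 0.986 and the counts a Spearman's rho of 0.974. An exact binomial test of each gene's reads against the libraries' totals, with Benjamini-Hochberg adjustment over 17271 genes with 10 or more reads in all, tested 25 of the segments. It called 3 of them, all higher in library 1, against 24.3% of all tested genes called and 11.6% called as higher in library 1. Trbv1, with 705 reads in library 1 and 578 in library 2, had a log2 ratio of 0.24 and an adjusted p of 0.0155 in the exact test. Trbv16, with 717 and 592 reads, had 0.23 and an exact adjusted p of 0.0199. Trbv3, with 1416 and 1233 reads, had 0.16 and an exact adjusted p of 0.0268. The median log2 ratio was 0.050 over the 25 segments and 0.0060 over all tested genes. Allowing for extra spread between libraries with edgeR's exact test at a set dispersion of 0.01 ended all 3 calls with ratios that hardly moved (0.24, 0.23 and 0.16). At that setting 2.84% of all tested genes were called. In the whole-number table the calls were also lost, at smaller log2 ratios of 0.20 for Trbv1, 0.031 for Trbv16 and 0.084 for Trbv3. There 9.95% of all tested genes were called.

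**Figure D5:**
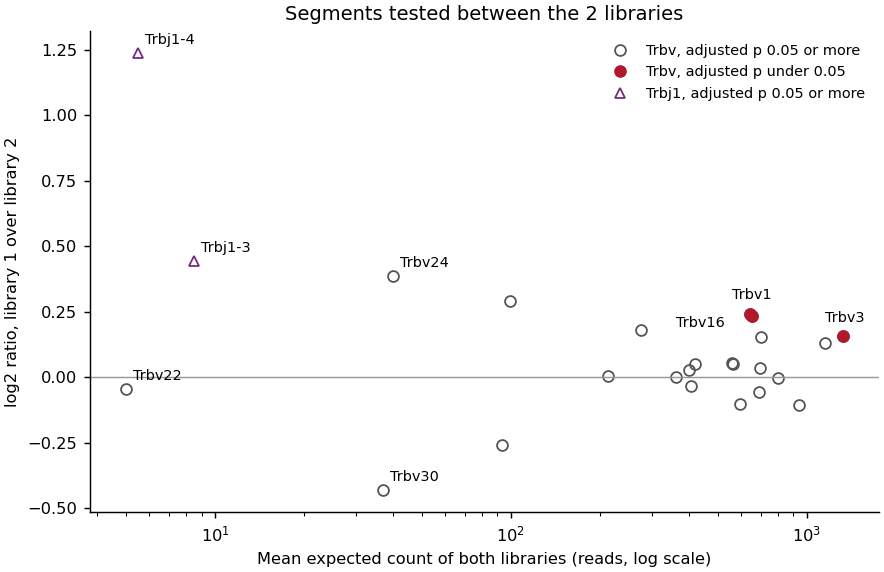
log2 ratio of library 1 over library 2 against the mean expected count (reads, log scale) for the 25 segments tested, with circles for Trbv, triangles for Trbj1 and filled red circles for those called. Trbv1, Trbv16 and Trbv3 are called at log2 ratios of 0.24, 0.23 and 0.16, and the widest ratio belongs to Trbj1-4 with 8 reads in library 1 and 3 in library 2.

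The 17 listed genes, those of recombination and joining together with Ptcra, divided into those at or near 0 reads and those clearly expressed. Rag2, a recombinase subunit, had 0 reads in both libraries, and its partner Rag1 had 2 and 0 reads in libraries 1 and 2. Dntt, the polymerase that adds untemplated bases at the joints, had 2 and 4 reads, and Ptcra, the surrogate alpha chain that pairs with a new beta chain, had 2.02 and 1. The other 13 of these 17 genes reached 1 TPM in both libraries. Among them were the end-binding subunits Xrcc5 (21.4 and 21.9 TPM) and Xrcc6 (43.9 and 43.2 TPM) and the ligase Lig4 (3.5 and 2.5 TPM). Hmgb1, a chromatin protein that aids RAG binding, had 303.6 and 312.4 TPM. Between the libraries 6 of these 13 were called, 3 in each direction, against 24.3% of all tested genes. With edgeR at a dispersion of 0.01, 0 were called, against 2.84% of all tested genes. The largest ratio among the 6 was that of the polymerase gene Poll at −0.45 with an exact adjusted p of 0.000167. The CD3 chains that carry the receptor's signal were all expressed, with a summed level of 2777 TPM in library 1 and 2873 TPM in library 2. Of the 4 CD3 genes, whose reads are many, 3 were called between the libraries by the binomial test, against 24.3% of all tested genes. With edgeR at that dispersion 0 were called, against 2.84%. The 3 were Cd3d as higher in library 1 (0.099) and Cd3e (−0.16) and Cd247 (−0.076) as lower.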

How the data were processed

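For each library the authors deposited gene and transcript tables on mm10 with GENCODE M21, with an expected count (an estimate of reads that need not be whole) and TPM per the file headers. The authors also deposited whole-number counts on GENCODE M4. The sources used here name no quantifier, counter or strandedness. Symbols, types, 1-based coordinates and transcript sequences came from GENCODE M21. Rows that name no gene, 0.142% and 0.186% of the estimated reads in libraries 1 and 2, entered neither library sizes nor tests.

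Expected counts were rounded for tests. With 1 library against 1, edgeR's quasi-likelihood test has no residual degrees of freedom. The test was instead an exact two-sided binomial test on genes with a summed count of 10 or more, adjusted over all of them with a threshold of 0.05 and 0.5 added to counts in log2 ratios (scipy 1.17.1). It was run on simulated counts that held counting error only, so that run does not show how the test behaves with extra spread between libraries. Alternatives used edgeR 4.0.16 and DESeq2 1.42.0. Intervals are 95% and, with the one-sided limit of 3 reads for a count of 0, cover counting error only. Labels do not say that the libraries came from separate cultures.

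Named were all Trbj and Trbd rows, the 12 Trbv rows with the most reads, the 5 leading pseudogenes, both ends of the array and called segments. Trbv4, Trbv21, Trbv30 and the pseudogenes at 0 were named after their values were seen. The segments, gene lists and markers were chosen with earlier results of these data known.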

Additional observations from a re-analysis of the deposited data

How the results depend on the processing

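No paired analysis was possible because the study has 1 group. Over all genes, 4198 were called between the libraries, against 491 with edgeR's exact test at a dispersion of 0.01 and 1092 in the whole-number table, and the 3 called segments became 0 in both. Other sizes and count filters gave 3696 to 4233 genes and 3 segments. With TPM in place of reads, the Trbj1 share of Trbj was 60.3%, the Trbc1 share of Trbc 35.1%, the functional share of Trbv 99.5%, the share of the 5 leading Trbv rows 40.7% and the segments' share of all genes 0.406%. In the whole-number table these were 53.9%, 47.5%, 36.4% and 0.224%, with no functional share since it holds no Trbv pseudogene. The Trbj1 share was 73.8% without the leading row of each J group and 38.2% per 50-base window, an alternative chosen after seeing the data. The log2 odds ratio of the Trbj1 share between libraries was 0.22 by reads and −0.068 in the whole-number table (p = 1 and p = 0.613 in Fisher's exact test), and the cause was not tested. Leaving out each library in turn gave Trbj1 shares of 69.6% to 72.7%, Trbc1 shares of 34.3%, functional shares of 99.6%, shares of the 5 leading rows of 42.0% to 42.3% and segment shares of 0.0771% to 0.0805%. With 33 and 23 J reads, all on rows long enough for a 50-base read, use of the J groups could not be compared in full. D use could not be measured from the expected counts.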
